A study of Solanum lycopersicum with 9 samples.

Results

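The comparison described here set imbibed tomato (Solanum lycopersicum) seeds of an SlWRKY37 knockout against wild-type (WT) seeds. Its members are the 3 libraries labelled SlWRKY37 knockout and the 3 labelled WT, which are 6 of the 9 libraries of the series, and every gene of the expression table enters. The other 3 libraries, labelled SlLBD40 knockout, share the fit. They therefore enter the estimate of spread and the choice of tested genes behind every call against WT. They also show where the WRKY37 knockout differs from another group treated alike. All seeds were taken 6 h into imbibition, and the labels give no other treatment. The labels name no cultivar, allele, edited site or number of independent lines, so each knockout may be 1 line, and they do not say whether replicates came from separate plants or seed lots. P-values therefore measure the spread between these libraries, which may be technical. The labels give the tissue as seeds and name no dissected part, so embryo, endosperm and seed coat may all contribute, and fewer cells of a type and less RNA per cell cannot be told apart.

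WRKY proteins are plant transcription factors that bind a short promoter element, the W-box, and many act in defence, in leaf ageing and in abscisic acid signalling. A dry seed holds stored messenger RNA for reserve and protection proteins, such as oleosins that coat oil bodies and late embryogenesis abundant (LEA) proteins that protect dried cells. During imbibition these transcripts decline, while genes for reserve breakdown, water channels and cell wall loosening are switched on before the root emerges.

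Levels are the deposited expression values, taken as FPKM, which corrects fragment numbers for transcript length and for library size, and are listed for replicates 1, 2 and 3 in that order. Read counts are not part of the table, so depth is unknown and no counting interval can be given. A gene is called by the table's description plus its chromosome, and genes alike in both are told apart by a copy number. A difference is on the log2(value + 1) scale with its standard error (SE), which understates the change of genes with low levels. Genes with an adjusted p below 0.05 in limma, adjusted over all 18346 genes tested of 40229 listed, are said to have risen or fallen. Copies of nearly identical genes, such as histones or RuBisCO small subunits, can exchange reads in the authors' counting, so single copies of such families are uncertain.

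The row described as WRKY transcription factor 37, on chromosome 1, was low in every library. It was at 0.28, 0.7 and 0.92 in WT, at 0.23, 0 and 0 in the WRKY37 knockout and at 1.11, 1.89 and 0.74 in the libraries labelled SlLBD40 knockout. The knockout libraries were all below the WT libraries, but the mean over the 9 libraries, 0.652, was under the minimum of 1 for testing. With all 29223 genes above 0 in at least 1 of the 9 libraries tested, the difference was -0.59 (SE 0.22, unadjusted p = 0.0252, adjusted p = 0.181 in limma). The labels name SlWRKY37 as the gene knocked out but give no identifier or edited site. In the RefSeq gene table SlWRKY37 is a synonym of LOC543856, which lies on chromosome 1 as well, and whether that is this row could not be settled from the shortened IDs. An edited gene can still be transcribed, so a level checks a label only in part. The row described as LOB domain-containing protein 40, on chromosome 5, went against the label of the third group. It was at 20.4, 5.6 and 11.8 in WT, at 4.77, 9.5 and 20.9 in the WRKY37 knockout and at 42.9, 43.9 and 36.1 in the libraries labelled SlLBD40 knockout, which were above all others (log2 difference of 1.78 from WT, adjusted p = 0.0169 in limma). Those libraries are therefore called the LBD40-labelled group, and every comparison with them is a comparison with libraries of that label. Where a difference is said to lie between the knockouts, that wording too follows the labels only.

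Between 23206 and 24161 genes had a level above 0 in the 6 libraries. Pearson correlations of log2 levels across genes, which are not independent replicates, were 0.972 to 0.976 among WT libraries, 0.960 to 0.967 among knockout libraries and 0.934 to 0.953 between the groups. Knockout replicate 3 stood apart from the other two knockout libraries. It was the knockout library nearest to the WT mean for 584 of the 884 genes that rose, or 66.1%, and for 354 of the 837 that fell, or 42.3%. Counts of more than 3 genes that move by over 1.5 times without it are also given without it.

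In all 1721 genes differed, which is 9.38% of those tested, with 4.82% higher and 4.56% lower in the knockout. Of these, 1716 had 3 knockout levels all above or all below the 3 WT levels, an arrangement found in 27.3% of all tested genes. A change of at least 1 on the log2 scale was seen for 386 genes that rose and 430 that fell, which are 2.1% and 2.34% of those tested, or 4.45% together. The count depended on single libraries, with 783 genes without WT replicate 1, 951 without WT replicate 3, 1134 without knockout replicate 1 and 2629 without knockout replicate 3. For genes that rose, the count of 884 became 345 and 414 without WT replicates 1 and 3, 479 and 559 without knockout replicates 1 and 2, and 1693 without knockout replicate 3. For genes that fell, the count of 837 became 438 and 537 without WT replicates 1 and 3. A fit of the WT and WRKY37 knockout libraries alone gave 802 genes. In the LBD40-labelled group 3296 of the 18346 tested genes were higher than in WT and 3530 lower, many more than in the WRKY37 knockout. Every count below of that group's list members above or below WT has to be read beside those numbers.

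**Figure D1:**
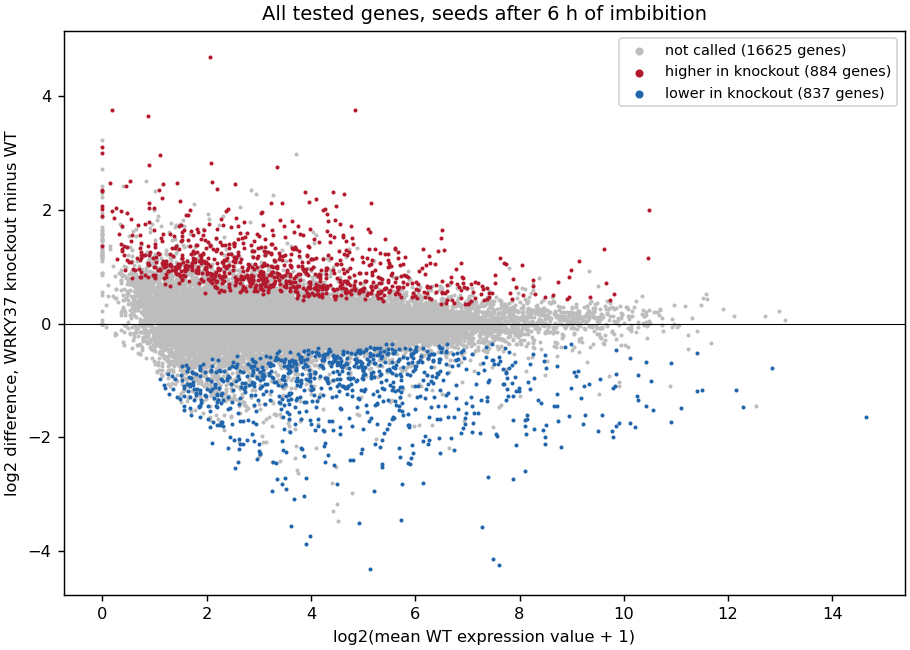
Each point is 1 of the 18346 tested genes, placed by the log2 of its mean WT level plus 1 and by its log2 difference between the WRKY37 knockout and WT. The 884 genes that rose and the 837 that fell are coloured, and towards the right edge, at high WT levels, most coloured points lie below 0, among them the 11 kDa LEA protein named with its values further on.

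The largest rises included genes of detoxification and the cell surface and 1 gene of ethylene synthesis. Glutathione S-transferase on chromosome 1 (copy 1), a member of a family that couples glutathione to toxic compounds, was at 21.6, 26.8 and 35.2 in WT and at 462, 334 and 369 in the knockout. Its knockout levels were all far above WT and above the LBD40-labelled group (18.6, 26.5 and 55.4), with a difference of 3.77, SE 0.33, adjusted p = 0.000473 from WT, and of 3.63, SE 0.33, adjusted p = 0.000151 from the LBD40-labelled group. Arabinogalactan peptide on chromosome 10, a small cell surface glycoprotein, was at 8.34, 8.18 and 11.1 in WT and at 73.8, 81.6 and 50.2 in the knockout, again without overlap (2.75, SE 0.18, adjusted p = 0.000137).

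1-aminocyclopropane-1-carboxylate oxidase 2 on chromosome 12, an enzyme of the last step of ethylene synthesis, was at 0.06, 0.52 and 0.72 in WT and at 15.7, 6.6 and 2.98 in the knockout. Its rise (2.5, SE 0.44, adjusted p = 0.00738) was highest in knockout replicate 1. The LBD40-labelled group was at 8.44, 14.1 and 10.2, and the difference between the knockouts did not pass (-0.55, SE 0.44, adjusted p = 0.372). Another such oxidase, 1-aminocyclopropane-1-carboxylate oxidase EF501822 on chromosome 2, fell, by -1.97 to -1.19 over the alternatives. It did not pass under 2 of 13 of them (adjusted p up to 0.0592 in limma). Ethylene synthesis and signalling genes had 2 rises and 2 falls of 30 tested, with a median of -0.12. S-norcoclaurine synthase on chromosome 3 was at 0, 0 and 0.3 in WT and at 5.74, 4.11 and 5.43 in the knockout, against 0, 0.06 and 0 in the LBD40-labelled group. That gene was higher than both other groups, by 2.47, SE 0.23, adjusted p = 0.00053 over WT and by 2.57, SE 0.23, adjusted p = 0.000136 over the LBD40-labelled group. Protein yippee-like on chromosome 3 (copy 4) was at 1.27, 2.5 and 1.33 in WT and at 23.2, 11.5 and 9.37 in the knockout (2.47, SE 0.30, adjusted p = 0.00139), and Sulfotransferase on chromosome 3 (copy 4) was at 0.15, 0.07 and 0.87 in WT and at 5, 9.41 and 4.7 in the knockout (2.42, SE 0.31, adjusted p = 0.00166).

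**Figure D2:**
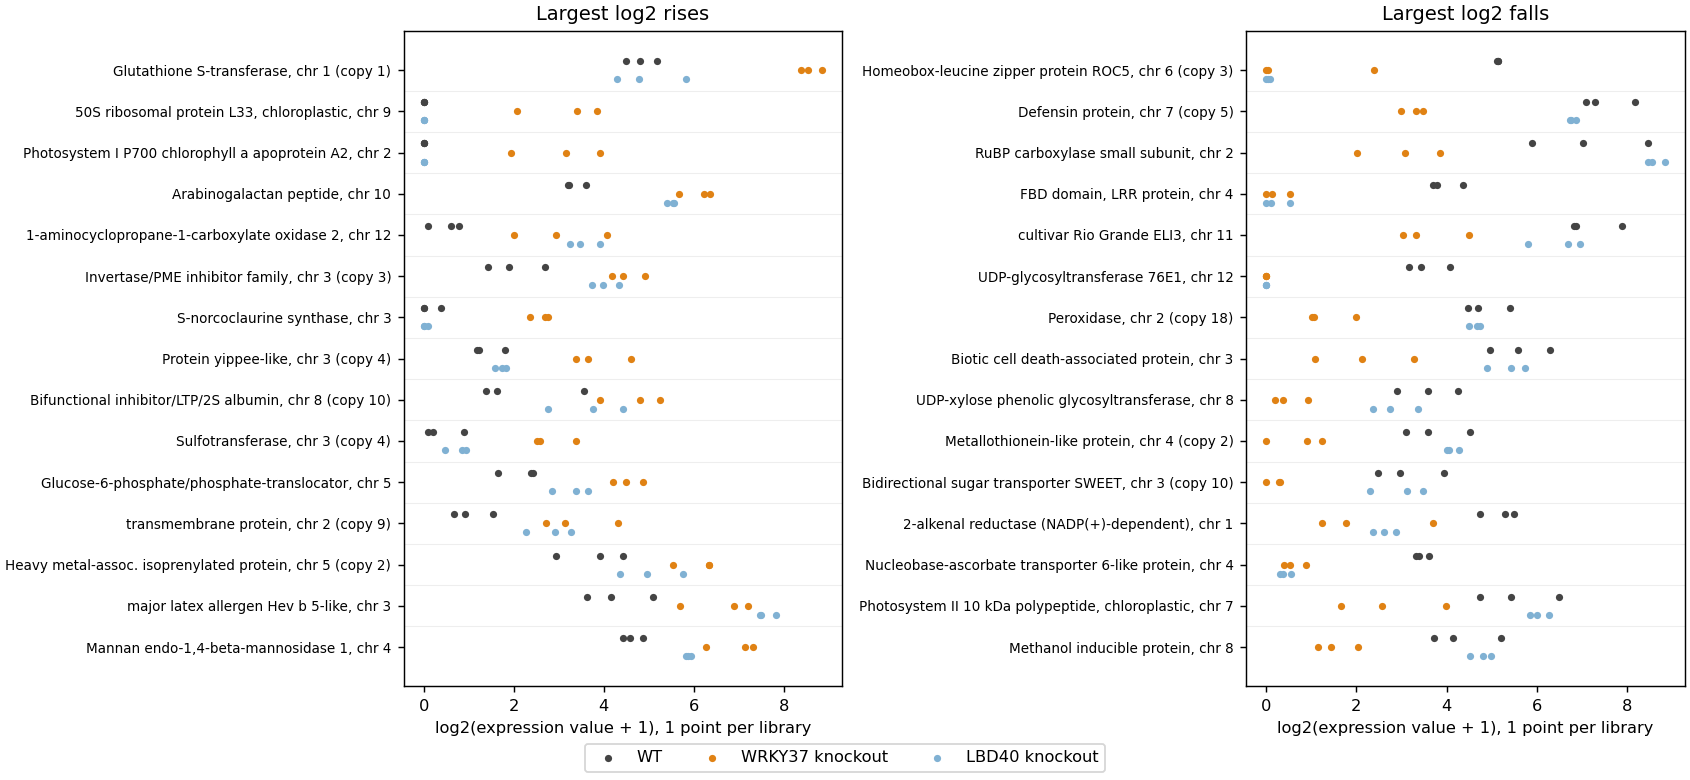
The 15 largest rises (left) and 15 largest falls (right) among called genes with non-overlapping groups and the higher group averaging at least 5, as log2(expression value + 1) with 1 point per library and 3 libraries per group. Points of the LBD40-labelled group lie with WT for some genes and with the WRKY37 knockout for others.

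Among the falls, Defensin protein on chromosome 7 (copy 5), a small antimicrobial peptide, was at 155, 135 and 289 in WT and at 10.1, 7 and 9 in the knockout. The WT mean was 22.2 times the knockout mean (-4.25, SE 0.25, adjusted p = 7.24e-05), while the LBD40-labelled group was at 105, 107 and 117. Peroxidase on chromosome 2 (copy 18), a secreted class III peroxidase, was at 41.6, 21.3 and 24.9 in WT and at 1.09, 1.03 and 2.96 in the knockout (-3.51, SE 0.29, adjusted p = 0.000423), and also lay below the LBD40-labelled group (-3.28, SE 0.29, adjusted p = 0.000133). The gene cultivar Rio Grande ELI3 on chromosome 11, whose family was first described as elicitor-induced in parsley, was at 116, 113 and 236 in WT and at 21.6, 7.18 and 9.07 in the knockout (-3.58, SE 0.43, adjusted p = 0.00125). In those 3 genes every knockout library was below every WT library. The lists that hold the defensin and the peroxidase moved both ways. Of 13 tested defensins, thionins and antimicrobial peptides 2 rose, both named as thionins, and 2 fell. Of 24 tested class III peroxidases 1 rose and 2 fell.

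In some of the steepest falls the LBD40-labelled group was low too. On chromosome 6, the gene (copy 3) described as Homeobox-leucine zipper protein ROC5 was at 34.3, 33.5 and 34.3 in WT and at 0.03, 4.28 and 0 in the knockout, and at 0, 0.06 and 0.02 in the LBD40-labelled group. FBD domain, Leucine-rich repeat domain, L domain-like protein on chromosome 4 was at 12.9, 19.7 and 12 in WT and at 0, 0.45 and 0.09 in the knockout, with 0.43, 0 and 0.08 in the LBD40-labelled group. Nucleobase-ascorbate transporter 6-like protein on chromosome 4 was at 8.96, 11.2 and 9.41 in WT and at 0.45, 0.84 and 0.32 in the knockout, with 0.23, 0.47 and 0.3 in the LBD40-labelled group. For these 3 genes every WT library was above every library of the WRKY37 knockout and of the LBD40-labelled group. The difference between the knockouts was 0.78 (SE 0.52, adjusted p = 0.287), 0.01 (SE 0.26, adjusted p = 0.983) and 0.19 (SE 0.21, adjusted p = 0.509) in that order.

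Genes of seed maturation fell in large numbers, and did so in the LBD40-labelled group as well. Of 46 tested LEA proteins and dehydrins, of 71 found, 27 fell, 3 rose and 16 did not pass, with a median difference of -1.12 against 0.02 over all tested genes. With no filter on low values, which adds listed genes near 0, the list's median was -0.52. In the LBD40-labelled group 22 of the 46 were below WT and 7 above, with a median of -0.61. The gene late embryogenesis abundant protein 6 on chromosome 6 was at 879, 1029 and 840.4 in WT and at 231, 272 and 281 in the knockout (-1.81, SE 0.16, adjusted p = 0.000465). The largest loss of level was in an LEA gene. On chromosome 10, the gene (copy 1) described as 11 kDa late embryogenesis abundant protein was at 29545, 26081 and 21682 in WT and at 9463, 6202 and 9515 in the knockout (-1.63, SE 0.20, adjusted p = 0.00143). Dehydrin on chromosome 2, a LEA protein of drought and cold, was at 5004, 4576 and 4039 in WT and at 2182, 1670.4 and 2203 in the knockout (-1.18, SE 0.15, adjusted p = 0.00146). In each of these genes the highest knockout library was under the lowest WT library. The LBD40-labelled group was at 6002, 6248 and 4709 for the 11 kDa gene and at 1677, 1800 and 1446 for the dehydrin. Neither of those 2 genes differed detectably between the knockouts (adjusted p = 0.0656 and 0.159 in limma).

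Of the 3 that rose, Late embryogenesis abundant protein on chromosome 11 (copy 1) had the highest WT level and was at 23.8, 28.1 and 23 in WT and at 43, 63.4 and 41.7 in the knockout (0.93, SE 0.16, adjusted p = 0.00731). The summed level of the list was 7.41, 6.77 and 5.99% of the library in WT and 2.96, 2.32 and 3.51% in the knockout, without overlap (exact permutation test, two-sided p = 0.1, the smallest that 3 against 3 libraries allow). Without single libraries the number that fell was 22 to 28. LEA hydroxyproline-rich glycoproteins, counted apart together with other hydroxyproline-rich glycoproteins, had 4 rises and 1 fall of 44 tested. Those 4 rises became 0 without WT replicate 1 or 3 and 2 without knockout replicate 1 or 2.

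Oil body genes also fell, with 12 of 15 tested members lower, none higher and a median of -1.24. In the LBD40-labelled group 13 of the 15 were below WT and 1 above, with a median of -1.25. The gene oleosin S1-2-like on chromosome 7 was at 249.9, 275 and 177 in WT and at 22.3, 31.7 and 54.3 in the knockout (-2.73, SE 0.28, adjusted p = 0.000689), and was still above the LBD40-labelled group, which was at 14.8, 12.6 and 11.6 (1.32, SE 0.28, adjusted p = 0.00853). The gene oil body-associated protein 2A-like on chromosome 2 (copy 1) was at 377, 379.8 and 283 in WT and at 67.6, 83.3 and 143 in the knockout (-1.87, SE 0.24, adjusted p = 0.00166), and was below the LBD40-labelled group (-0.89, SE 0.24, adjusted p = 0.0222). Caleosin on chromosome 1 (copy 1), a calcium-binding oil body protein, was at 41.9, 43.3 and 35.5 in WT and at 11.8, 15.7 and 30.04 in the knockout (-1.13, SE 0.29, adjusted p = 0.0367). The caleosin did not pass under 7 of 14 alternatives (adjusted p up to 0.117), among them those without WT replicate 1, 2 or 3 or knockout replicate 1 or 2. Replicate 3 was the highest knockout library in each of these 3 genes.

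Of 14 tested storage globulins and vicilins, the main protein reserve, 4 fell and none rose. In the LBD40-labelled group 7 of the 14 were below WT and 3 above. On chromosome 2, the gene described as vicilin-like seed storage protein At2g18540 was at 325, 415 and 328 in WT and at 79, 92 and 93.2 in the knockout, a fall in which the 3 knockout libraries were close together (-1.997, SE 0.12, adjusted p = 7.35e-05). Vicilin-like antimicrobial peptides 2-1 on chromosome 9 was at 1017, 910.2 and 700.05 in WT and at 131, 159 and 611 in the knockout (-1.89, SE 0.51, adjusted p = 0.0441), with replicate 3 close to the lowest WT library. This vicilin-like gene did not pass under 8 of 14 alternatives (adjusted p up to 0.143), among them those without WT replicate 1, 2 or 3 or knockout replicate 1 or 2. The summed share of the list was 1.01, 0.917 and 0.757% in WT and 0.178, 0.239 and 0.885% in the knockout, where the groups overlapped (exact permutation test, two-sided p = 0.2). The count of 4 was 1 without WT replicate 1 or 3, 2 without knockout replicate 1 or 2 and 9 without knockout replicate 3.

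Genes named for 2S albumins, another protein reserve, or for lipid-transfer proteins, which carry lipids to the cell surface, share a fold and were counted together. Of 45 tested 9 rose and 2 fell, with a median of 0.37, or 0.02 with no filter on low values. Non-specific lipid-transfer protein on chromosome 1 (copy 6) was at 1546, 1557 and 1179 in WT and at 3686, 4355 and 11147 in the knockout (1.99, SE 0.35, adjusted p = 0.0075). Non-specific lipid-transfer protein on chromosome 10 (copy 8) went the other way and was at 13.2, 11.3 and 19.9 in WT and at 5.16, 3.19 and 3.18 in the knockout (-1.70, SE 0.22, adjusted p = 0.0017). Knockout replicate 3 was far above the other two for the first gene and within their range or at its edge for the second. The 9 rises became 3 without WT replicate 1, 4 without knockout replicate 1 or 2 and 17 without knockout replicate 3.

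**Figure D3:**
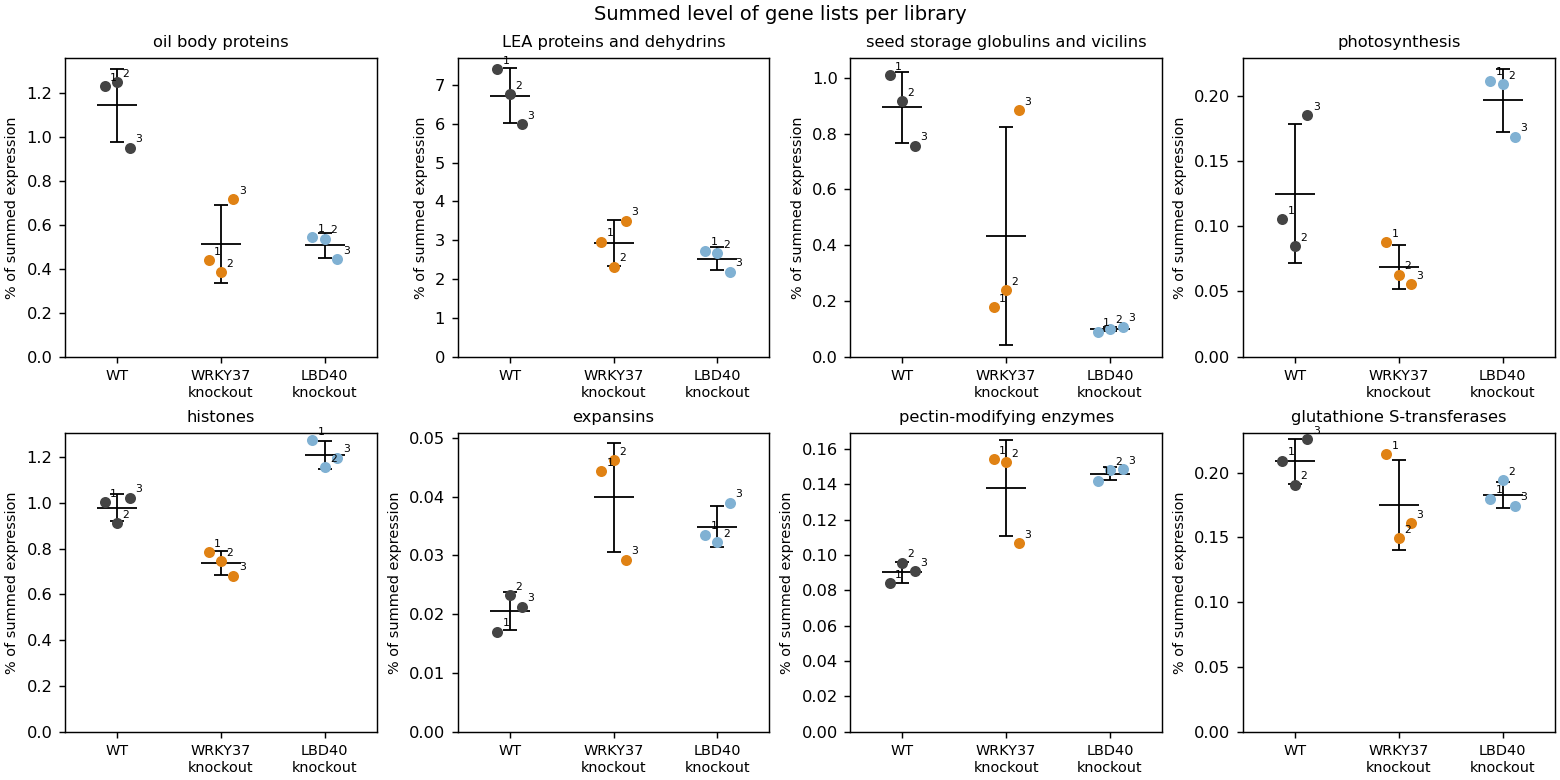
Summed level of 8 gene lists as a percentage of each library's summed expression, with 1 numbered point per replicate, the mean as a bar and SD as whiskers (3 libraries per group). LEA and oil body shares are lower in all WRKY37 knockout libraries than in all WT libraries, and the storage globulin share of knockout replicate 3, 0.885%, lies among WT values.

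Among 21 tested genes of beta-oxidation, the glyoxylate cycle and lipid release, which turn stored oil into sugar, 3 fell and 1 rose. The median was -0.08, and 0.03 without knockout replicate 3. The gene isocitrate lyase LEU18678 on chromosome 7, a key glyoxylate cycle enzyme, was at 1928, 1870.3 and 1983 in WT and at 1524, 895 and 1225 in the knockout (-0.70, SE 0.18, adjusted p = 0.0394), and was also below the LBD40-labelled group at 2739, 2993 and 2256 (-1.16, SE 0.18, adjusted p = 0.00245). Isocitrate lyase did not pass under 10 of 14 alternatives (adjusted p up to 0.123), among them those without WT replicate 1, 2 or 3 or knockout replicate 2 or 3. Malate synthase on chromosome 3 (copy 2), its partner enzyme, was at 973, 806 and 1005 in WT and at 712, 639.8 and 652 in the knockout (-0.47, SE 0.12, adjusted p = 0.0367). Malate synthase did not pass under 11 of 14 alternatives (adjusted p up to 0.141), among them those without WT replicate 1 or 3 or any 1 knockout library. The count of 3 was 0 without WT replicate 1 or 3 and 1 without knockout replicate 2 or 3.

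In sugar metabolism 5 genes rose and 7 fell of 47 tested for starch, raffinose and trehalose. On chromosome 7, the gene described as alkaline alpha-galactosidase seed imbibition protein, of a family that splits raffinose sugars, was at 14.5, 15.1 and 11.2 in WT and at 1.25, 1.95 and 2.63 in the knockout (-2.33, SE 0.22, adjusted p = 0.000536). The gene galactinol synthase 1 on chromosome 1, the first step towards raffinose, was at 138, 128 and 103 in WT and at 42, 24.8 and 51.7 in the knockout (-1.67, SE 0.29, adjusted p = 0.00669). Opposite to these, Raffinose synthase family protein on chromosome 7 was at 23.3, 26.7 and 20.6 in WT and at 71.4, 89.7 and 54.9 in the knockout (1.55, SE 0.21, adjusted p = 0.00217). The rises numbered 2 without WT replicate 3 and 3 without knockout replicate 1, and the falls 3 without WT replicate 1.

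Proteases rose far more often than they fell, with 22 up and 2 down of 120 tested. These are 18.3% and 1.67%, beside 4.82% and 4.56% over all tested genes. The median over the list was 0.08 and ranged from 0.01 to 0.17 over the alternatives. In the LBD40-labelled group 42 of the 120 were above WT and 13 below. Between the knockouts 15 proteases were higher and 27 lower in the WRKY37 knockout, beside 14.1% and 12.9% over all tested genes. Cysteine proteinase RD21a on chromosome 2, a papain-like vacuolar protease, was at 749.8, 832 and 789 in WT and at 2310.1, 2090.5 and 1549 in the knockout (1.31, SE 0.14, adjusted p = 0.000908) and was above the LBD40-labelled group (0.58, SE 0.14, adjusted p = 0.0157). KDEL-tailed cysteine endopeptidase on chromosome 3, of a family linked to programmed cell death in seed tissues, was at 12.8, 28.2 and 21 in WT and at 70.4, 61.9 and 45.5 in the knockout (1.52, SE 0.25, adjusted p = 0.00523). Cysteine proteinase 15A on chromosome 11 moved the other way and was at 1420, 1441 and 1283 in WT and at 769, 859 and 978 in the knockout (-0.67, SE 0.12, adjusted p = 0.00708). The 22 rises became 10, 14 and 12 without WT replicates 1, 2 and 3 and 14 without knockout replicate 1, and the 2 falls became 6 without knockout replicate 3. GDSL esterases and lipases showed 8 rises and no fall of 33, with 4 rises without WT replicate 1 or 3 and 5 without knockout replicate 1.

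In several families of wall-loosening enzymes some members rose and none fell, and the LBD40-labelled group had rises in the same families. Mannan is the main wall polymer of the tomato endosperm, and endo-beta-mannanases that digest it weaken the tissue around the root tip. Of 27 tested mannan and galactan hydrolases, 8 rose and none fell (median 0.39, or 0.04 with no filter on low values). In the LBD40-labelled group 13 of the 27 were above WT and 5 below, beside 3296 above and 3530 below of all 18346 tested genes. Between the knockouts 4 were higher and 3 lower in the WRKY37 knockout, near the 14.1% and 12.9% over all tested genes. Mannan endo-1,4-beta-mannosidase 1 on chromosome 4 was at 20.4, 23.1 and 28.2 in WT and at 157, 139 and 76.5 in the knockout, a mean 5.21 times that of WT (2.28, SE 0.23, adjusted p = 0.000689), and exceeded the LBD40-labelled group at 59.8, 55.7 and 57.8 (1.03, SE 0.23, adjusted p = 0.0114). (1-4)-beta-mannan endohydrolase precursor on chromosome 6 was at 3.24, 7.12 and 2.48 in WT and at 25.3, 19.98 and 13.1 in the knockout (2.01, SE 0.36, adjusted p = 0.00826). The gene beta-mannosidase enzyme on chromosome 3, which finishes mannan breakdown, was at 536, 569 and 581 in WT and at 1060.4, 1554 and 1049 in the knockout (1.09, SE 0.18, adjusted p = 0.00517). All 3 had every knockout library above every WT library. The count of 8 was 4 without WT replicate 1, WT replicate 3 or knockout replicate 1, 5 without knockout replicate 2 and 13 without knockout replicate 3.

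Expansins, proteins that loosen walls without cutting them, gave 5 rises and no fall of 15 tested, with a median of 0.97, or 0.18 with no filter on low values. Expansin A11 on chromosome 4 was at 5.35, 10.8 and 5.76 in WT and at 38.1, 38.3 and 18.4 in the knockout (1.96, SE 0.34, adjusted p = 0.00739), above the LBD40-labelled group at 9.69, 12.1 and 19.7 (1.12, SE 0.34, adjusted p = 0.0371). The gene expansin 8 on chromosome 12 was at 5.48, 13.3 and 10.1 in WT and at 51.9, 39.6 and 20.3 in the knockout (1.82, SE 0.36, adjusted p = 0.0133), with replicate 3 the lowest of the knockout. Expansin 8 did not pass under 3 of 14 alternatives (adjusted p up to 0.0535), among them those without WT replicate 1 or knockout replicate 2. The summed share was 0.0170, 0.0233 and 0.0213% in WT and 0.0443, 0.0462 and 0.0293% in the knockout, without overlap (exact permutation test, two-sided p = 0.1). The number of rises was 2 without WT replicate 1 or knockout replicate 2, 3 without knockout replicate 1 and 9 without knockout replicate 3. It was 10 under quantile normalization or median-ratio scaling, 8 under equal library totals and 3 with the WT and WRKY37 knockout libraries alone. In the LBD40-labelled group 6 of the 15 were above WT and none below. Between the knockouts 3 expansins were higher and 2 lower in the WRKY37 knockout, beside 14.1% and 12.9% over all tested genes.

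Pectin-modifying enzymes, which include pectinesterases, pectate lyases and polygalacturonases, rose in 16 of 56 cases and fell in none. The median was 0.52, or 0.28 without knockout replicate 1 and 0.03 with no filter on low values. The gene pectinesterase on chromosome 4 was at 66.4, 112 and 68.8 in WT and at 198, 182 and 129.9 in the knockout (1.05, SE 0.22, adjusted p = 0.0162). That pectinesterase did not pass under 5 of 14 alternatives (adjusted p up to 0.0714), among them those without WT replicate 1 or 3 or knockout replicate 1 or 2. Pectinesterase on chromosome 1 (copy 14) was at 0.33, 0.64 and 0.83 in WT and at 4.68, 5.86 and 2.82 in the knockout (1.74, SE 0.25, adjusted p = 0.00271), a low level in both groups. Pectin lyase-like superfamily protein on chromosome 5 (copy 3) was at 55.6, 68.1 and 87.5 in WT and at 184, 274 and 103 in the knockout (1.31, SE 0.31, adjusted p = 0.0262). The pectin lyase-like gene did not pass under 7 of 14 alternatives (adjusted p up to 0.104), among them those without WT replicate 1 or 2 or knockout replicate 1 or 2. The 16 rises became 5 without WT replicate 1 or knockout replicate 2 and 6 without knockout replicate 1. They became 7 without WT replicate 2 or 3 and 24 without knockout replicate 3. In the LBD40-labelled group 23 of the 56 were above WT and 2 below. Between the knockouts 8 were higher and 10 lower in the WRKY37 knockout, beside 14.1% higher and 12.9% lower over all tested genes. The pectin methylesterase inhibitor family, a list of its own, had 2 rises and no fall of 12 tested (median 0.64).

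In other wall families some members rose and some fell. Xyloglucan endotransglucosylase/hydrolases, which cut and rejoin xyloglucan chains, had 4 rises and 2 falls of 17. The gene xyloglucan endotransglucosylase-hydrolase 4 on chromosome 11 was at 38.1, 66.5 and 39.5 in WT and at 127, 149 and 83.3 in the knockout (1.31, SE 0.26, adjusted p = 0.0136), whereas Xyloglucan endotransglucosylase/hydrolase on chromosome 7 (copy 4) was at 17.5, 23.6 and 15.1 in WT and at 11.1, 6.42 and 9.28 in the knockout (-0.996, SE 0.21, adjusted p = 0.0184). The first did not pass under 3 of 14 alternatives (adjusted p up to 0.0614), those without WT replicate 1 or 3 or knockout replicate 2, and the second under 4 (adjusted p up to 0.0645), among them those without WT replicate 1 or 2 or knockout replicate 2. The 4 rises became 1 without WT replicate 1, WT replicate 3 or knockout replicate 2. Glucanases had 5 rises and 1 fall of 33, and the rise with the smallest adjusted p was Endoglucanase on chromosome 1 (copy 2), which was at 0.74, 0.74 and 1.06 in WT and at 7.78, 7.59 and 4.63 in the knockout (2.03, SE 0.23, adjusted p = 0.00106). Those 5 rises became 3 without WT replicate 1 or 3 and 9 without knockout replicate 3. Arabinogalactan proteins and extensins had 10 rises and 4 falls of 38, and classical arabinogalactan protein 5 on chromosome 4, one of the 4, was at 512, 577 and 573 in WT and at 285, 334 and 312 in the knockout (-0.84, SE 0.10, adjusted p = 0.00136). The 10 rises ranged from 2 without WT replicate 3, over 3 without WT replicate 1 or knockout replicate 1 and 5 without knockout replicate 2, to 18 without knockout replicate 3, and the 4 falls became 1 without WT replicate 1 or knockout replicate 1 and 2 without WT replicate 2 or 3.

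**Figure D4:**
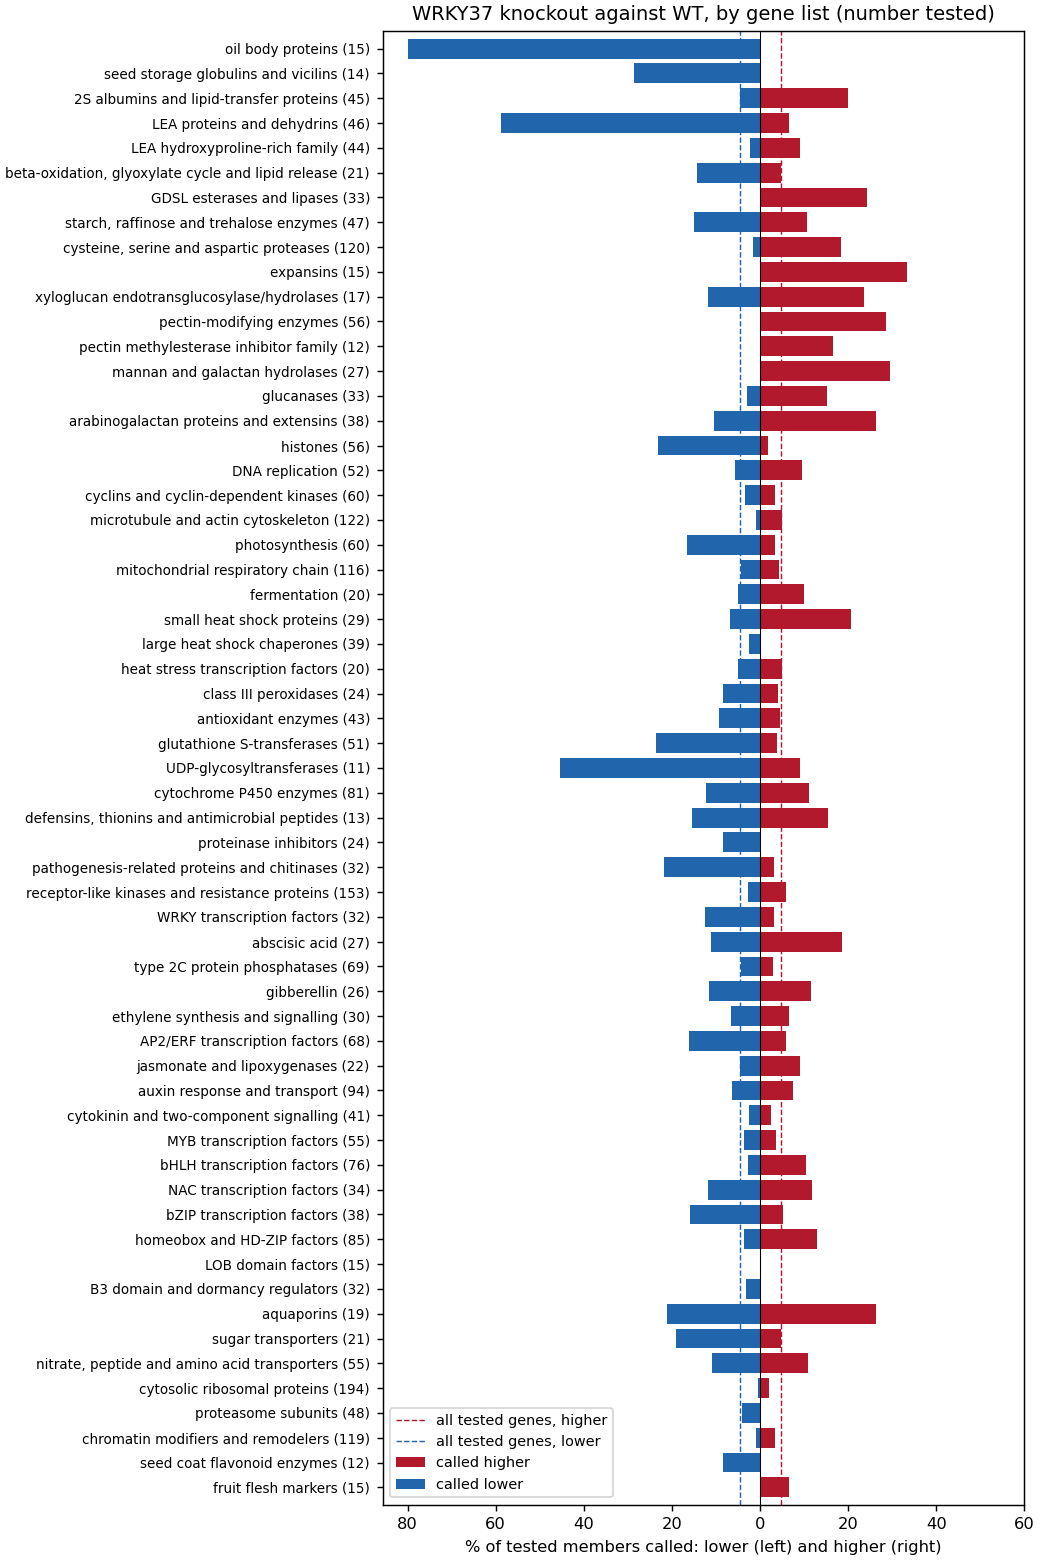
Share of the tested members of each gene list that fell (left, blue) or rose (right, red) in the WRKY37 knockout against WT, with the number tested in brackets and the shares over all tested genes as dashed lines (4.56% lower, 4.82% higher). Oil body and LEA lists extend furthest to the left, and the expansin, mannan and pectin lists lie wholly on the right.

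Water channels split by membrane. Of 19 tested aquaporins 5 rose, all plasma membrane intrinsic proteins, and 4 fell, all tonoplast intrinsic proteins of the vacuole. The gene plasma membrane intrinsic protein 2.9 on chromosome 10 was at 176, 194 and 179 in WT and at 323, 333 and 334 in the knockout (0.85, SE 0.09, adjusted p = 0.000742), and plasma membrane intrinsic protein 1.2 on chromosome 1 was at 9.44, 9.17 and 9.67 in WT and at 19.9, 26.4 and 25.8 in the knockout (1.25, SE 0.13, adjusted p = 0.000735). The gene tonoplast intrinsic protein 3.1 on chromosome 6, of the seed-specific TIP3 type, was at 429, 531 and 309 in WT and at 119, 92.1 and 177 in the knockout (-1.72, SE 0.24, adjusted p = 0.00252). The gene tonoplast intrinsic protein 3.2 on chromosome 3, of the same type, was at 984, 1109.96 and 773 in WT and at 204, 228 and 469 in the knockout (-1.75, SE 0.28, adjusted p = 0.00419). The groups did not overlap in any of the 4 genes. Without WT replicate 1 the 5 rises became 3, and the 4 falls stayed at 4 without any 1 library.

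Photosynthesis genes fell in 10 of 60 tested cases and rose in 2. The median was -0.66, or -0.38 without WT replicate 3, -0.998 with a pseudocount of 0.1 and -0.10 with no filter on low values. RuBP carboxylase small subunit on chromosome 2, part of the carbon-fixing enzyme, was at 129.6, 58.7 and 351 in WT and at 13.5, 7.41 and 3.05 in the knockout (-4.15, SE 0.58, adjusted p = 0.00257). WT replicate 3 was far above the other WT libraries, and the LBD40-labelled group was near it at 377, 457 and 351 (-5.64, SE 0.58, adjusted p = 0.000302 between the knockouts). Photosystem II 10 kDa polypeptide, chloroplastic on chromosome 7 was at 42.1, 25.9 and 89.7 in WT and at 14.7, 4.97 and 2.15 in the knockout (-2.82, SE 0.55, adjusted p = 0.0115). It did not pass in the fit of WT and WRKY37 knockout libraries alone (adjusted p = 0.0573). Ribulose bisphosphate carboxylase/oxygenase activase, chloroplastic on chromosome 10 was at 14, 11.8 and 18.6 in WT and at 9.69, 5.75 and 6.34 in the knockout (-0.94, SE 0.21, adjusted p = 0.0205). The activase did not pass under 4 of 14 alternatives (adjusted p up to 0.0796), among them those without WT replicate 1 or 3 or knockout replicate 2. WT replicate 3 was highest in each of these, and the knockout libraries were below every WT library. The list's summed share was 0.105, 0.0846 and 0.185% in WT and 0.0878, 0.0630 and 0.0555% in the knockout, which overlapped (exact permutation test, two-sided p = 0.2). The count of 10 was 4 without WT replicate 1, 5 without WT replicate 3 or knockout replicate 2, and 6 without knockout replicate 3. Against the LBD40-labelled group, 35 of the 60 were lower and 3 higher, beside 12.9% lower and 14.1% higher over all tested genes. That group itself had 15 of the 60 above WT and 1 below.

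The 2 photosynthesis genes that rose were a small subunit copy and a photosystem gene listed at 0 elsewhere. Ribulose bisphosphate carboxylase small chain on chromosome 7 was at 1.57, 3.44 and 2.88 in WT and at 8.57, 7.36 and 4.41 in the knockout (1.10, SE 0.26, adjusted p = 0.0267). That rise did not pass under 7 of 14 alternatives (adjusted p up to 0.0964), among them those without WT replicate 1 or 3 or knockout replicate 1 or 2. Photosystem I P700 chlorophyll a apoprotein A2 on chromosome 2 was listed at 0 in the WT and LBD40-labelled libraries and at 2.82, 8 and 14 in the WRKY37 knockout. 50S ribosomal protein L33, chloroplastic on chromosome 9 was likewise listed at 0 in WT and the LBD40-labelled group and at 13.3, 9.52 and 3.18 in the WRKY37 knockout. An exact 0 in a table without counts can be a failed estimate, so no fold is given. Both proteins are known as products of the chloroplast genome, and these rows carry nuclear chromosome numbers.

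Histones fell in 13 of 56 tested cases and rose in 1 (median -0.29, or -0.18 without WT replicate 3 or knockout replicate 3). Histone H4 on chromosome 6 (copy 7) was at 777, 740.4 and 712 in WT and at 378, 431 and 328 in the knockout (-0.98, SE 0.12, adjusted p = 0.00162), and Histone H2A on chromosome 12 (copy 1) was at 213, 217 and 184 in WT and at 112, 123 and 117 in the knockout (-0.79, SE 0.10, adjusted p = 0.00135). Histone H1 on chromosome 9 (copy 1), a linker histone, was at 309, 288 and 281 in WT and at 176, 180.2 and 182 in the knockout (-0.70, SE 0.10, adjusted p = 0.00221). The groups did not overlap in any of the 3 genes. The list's summed share was 1.004, 0.912 and 1.02% in WT and 0.784, 0.746 and 0.682% in the knockout, without overlap (exact permutation test, two-sided p = 0.1). The 13 falls became 7 without WT replicate 1 and 8 without WT replicate 3. Against the LBD40-labelled group 41 of the 56 were lower and 1 higher, beside 12.9% lower and 14.1% higher over all tested genes. That group itself had 35 of the 56 above WT and 7 below, with a median of 0.97.

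Other cell cycle genes did not move as one. DNA replication genes had 5 rises and 3 falls of 52, or 9.62% and 5.77%, beside 4.82% and 4.56% over all tested genes. Cyclins and their kinases had 2 and 2 of 60, or 3.33% each, and 4 and 4 without knockout replicate 3. DNA replication licensing factor MCM7 on chromosome 1, part of the helicase that opens replication origins, was at 16.6, 13.7 and 12 in WT and at 34.4, 42.9 and 25 in the knockout (1.20, SE 0.19, adjusted p = 0.00406). D-type cyclin-2 on chromosome 1, of the cyclins that start the cell cycle, was at 4.71, 5.14 and 5.39 in WT and at 16.6, 22.5 and 11.2 in the knockout (1.5, SE 0.22, adjusted p = 0.00343), above the LBD40-labelled group (0.93, SE 0.22, adjusted p = 0.015). G1/S-specific cyclin-E protein on chromosome 7 was at 65.1, 64.7 and 59.1 in WT and at 49.5, 41.3 and 44.2 in the knockout (-0.48, SE 0.11, adjusted p = 0.025). The cyclin-E gene did not pass under 6 of 14 alternatives (adjusted p up to 0.0959), among them those without WT replicate 1, 2 or 3 or knockout replicate 2. The 5 rises of replication genes became 2 without WT replicate 1 or 3, 3 without WT replicate 2 or knockout replicate 1 or 2, and 10 without knockout replicate 3, and the 3 falls became 1 without WT replicate 1 or 3 and 5 without knockout replicate 2. Chromatin modifiers had 4 rises and 1 fall of 119 against WT. Those 4 rises became 2 without WT replicate 1 or knockout replicate 1 or 2 and 8 without knockout replicate 3. The single fall became 6 without knockout replicate 2. Against the LBD40-labelled group 41 of the 119 were higher and 4 lower, beside 14.1% higher and 12.9% lower over all tested genes. That group itself had 54 of the 119 below WT and 7 above.

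Among detoxification genes falls outnumbered rises, apart from the copy on chromosome 1 given above. Of 51 tested glutathione S-transferases 12 fell and 2 rose, with a median of -0.05 that ranged from -0.31 to -0.03 over the alternatives. Glutathione S-transferase on chromosome 10 (copy 3) had the highest WT level of those that fell and was at 359, 366 and 299 in WT and at 146, 103 and 143 in the knockout (-1.39, SE 0.15, adjusted p = 0.000777). Glutathione S-transferase-like protein on chromosome 7 (copy 4) was at 30.2, 21.4 and 29.2 in WT and at 2.99, 2.19 and 10.5 in the knockout (-2.39, SE 0.40, adjusted p = 0.00575). The 12 falls became 7 without WT replicate 1 or knockout replicate 2 and 6 without WT replicate 3. Of 11 tested UDP-glycosyltransferases, which attach sugars to small molecules, 5 fell and 1 rose. UDP-xylose phenolic glycosyltransferase on chromosome 8 was at 10.9, 6.47 and 17.9 in WT and at 0.29, 0.9 and 0.14 in the knockout (-3.08, SE 0.36, adjusted p = 0.00117), below the LBD40-labelled group (-2.33, SE 0.36, adjusted p = 0.00236). UDP-glycosyltransferase 76E1 on chromosome 12 was at 9.87, 7.95 and 15.9 in WT and listed at 0 in all libraries of the WRKY37 knockout and the LBD40-labelled group.

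Among defence genes the calls differed by family. Pathogenesis-related proteins and chitinases, which attack fungal walls, had 7 falls and 1 rise of 32. The gene acidic extracellular 26 kD chitinase on chromosome 2 was at 60.4, 49 and 67 in WT and at 7.69, 9.02 and 13.3 in the knockout (-2.46, SE 0.19, adjusted p = 0.000303), also below the LBD40-labelled group (-1.90, SE 0.19, adjusted p = 0.000265). Chitinase on chromosome 10 (copy 5) was at 411, 231 and 291 in WT and at 62.9, 77.6 and 119 in the knockout (-1.85, SE 0.25, adjusted p = 0.00201), likewise below the LBD40-labelled group (-2.30, SE 0.25, adjusted p = 0.00037). The rise was Thaumatin-like protein on chromosome 3 (copy 2), which was at 22.6, 21.3 and 23.1 in WT and at 58.8, 70.4 and 42.1 in the knockout (1.29, SE 0.17, adjusted p = 0.0017). Cysteine proteinase inhibitors block papain-like proteases, and Cysteine proteinase inhibitor on chromosome 12 was at 41, 89 and 48.6 in WT and at 6.71, 10.8 and 14.1 in the knockout (-2.36, SE 0.30, adjusted p = 0.00162), 1 of 2 falls among 24 proteinase inhibitors. Receptor-like kinases and resistance proteins had 9 rises and 4 falls of 153, near the background shares. The 9 rises became 4 without WT replicate 1 or 3, 5 without knockout replicate 2 and 24 without knockout replicate 3.

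Small heat shock proteins, chaperones of dry seeds and heat stress, had 6 rises and 2 falls of 29. The gene small heat shock protein 1 on chromosome 5 was at 34.5, 24.7 and 38.9 in WT and at 77.5, 62.8 and 80.1 in the knockout (1.16, SE 0.17, adjusted p = 0.00305), and 17.5 kDa class I heat shock protein on chromosome 4 was at 384, 199.5 and 236 in WT and at 21.9, 26.3 and 131 in the knockout (-2.60, SE 0.54, adjusted p = 0.0159), with replicate 3 between the other knockout libraries and WT. The 17.5 kDa gene did not pass under 4 of 14 alternatives (adjusted p up to 0.0705), among them those without WT replicate 1 or knockout replicate 1 or 2. The 6 rises became 3 without WT replicate 3. Antioxidant enzymes had 4 falls and 2 rises of 43, and 1-Cys peroxiredoxin on chromosome 3, a peroxidase known from dormant seeds, was at 839.6, 798 and 551 in WT and at 133, 143 and 386 in the knockout (-1.88, SE 0.34, adjusted p = 0.00897). The 4 falls became 2 without WT replicate 3.

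Genes of abscisic acid, the hormone that holds seeds dormant, split by role. All 3 that fell were basic leucine zipper factors of the ABSCISIC ACID-INSENSITIVE 5-like type, and 4 of the 5 that rose were receptors of the PYL family, out of 27 tested. ABSCISIC ACID-INSENSITIVE 5-like protein 7 on chromosome 1 was at 24.8, 25.4 and 42.3 in WT and at 7.45, 6.77 and 8.68 in the knockout (-1.85, SE 0.19, adjusted p = 0.000742), far below the LBD40-labelled group at 49.5, 54.6 and 47.3 (-2.58, SE 0.19, adjusted p = 5.34e-05). ABSCISIC ACID-INSENSITIVE 5-like protein 5 on chromosome 1 was at 52.6, 42.8 and 44.6 in WT and at 19.5, 28.6 and 16.5 in the knockout (-1.11, SE 0.20, adjusted p = 0.00766). The gene abscisic acid receptor PYL4-like on chromosome 3 was at 48.6, 43 and 39.4 in WT and at 125, 95.6 and 74.2 in the knockout (1.13, SE 0.19, adjusted p = 0.00616), and did not differ detectably from the LBD40-labelled group (-0.24, SE 0.19, adjusted p = 0.376). The 5 rises became 2 without WT replicate 3 or knockout replicate 1 and 3 without WT replicate 1, WT replicate 2 or knockout replicate 2, and the 3 falls became 5 without knockout replicate 3.

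Gibberellin promotes germination, and 3 of its 26 tested genes rose and 3 fell. Gibberellin-regulated protein 6 on chromosome 3, a small secreted peptide, was at 12.8, 15 and 16.2 in WT and at 119, 82.1 and 31.4 in the knockout (2.13, SE 0.38, adjusted p = 0.0076), and Gibberellin-regulated protein on chromosome 6 was at 14.2, 19.99 and 22.4 in WT and at 91.5, 77.1 and 55.7 in the knockout (1.93, SE 0.21, adjusted p = 0.000927). Gibberellin receptor on chromosome 6 fell and was at 29.6, 26.7 and 21.1 in WT and at 11.1, 9.41 and 18.6 in the knockout (-0.98, SE 0.23, adjusted p = 0.0285). The receptor did not pass under 7 of 14 alternatives (adjusted p up to 0.113), among them those without WT replicate 1 or 2 or knockout replicate 1 or 2. The 3 rises became 7 without knockout replicate 3, and the 3 falls 1 without WT replicate 1 or knockout replicate 1 and 5 without knockout replicate 3.

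AP2/ERF factors, many of which act in ethylene and stress responses, had 11 falls and 4 rises of 68. Ethylene-responsive transcription factor on chromosome 4 (copy 6) was at 206, 154 and 207 in WT and at 43.9, 56.4 and 41.5 in the knockout (-1.98, SE 0.16, adjusted p = 0.000423), and Ethylene-responsive transcription factor on chromosome 7 (copy 1) was at 68.1, 94.8 and 62.6 in WT and at 22.8, 15.6 and 12.1 in the knockout (-2.11, SE 0.25, adjusted p = 0.00123). Both were below the LBD40-labelled group, by a log2 difference of -0.91 (SE 0.16, adjusted p = 0.00447) and -3.004 (SE 0.25, adjusted p = 9.81e-05). Ethylene-responsive transcription factor on chromosome 4 (copy 5) was on the other side and was at 83.7, 96.9 and 75.5 in WT and at 244, 212 and 169 in the knockout (1.27, SE 0.15, adjusted p = 0.00136). The 11 falls became 7 and the 4 rises 2 without WT replicate 1.

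Other WRKY genes fell in 4 of 32 tested cases and rose in 1. WRKY transcription factor 6 on chromosome 2 was at 13.6, 10.2 and 11.9 in WT and at 4.59, 2.77 and 1.59 in the knockout (-1.76, SE 0.26, adjusted p = 0.00348), and was below the LBD40-labelled group (-1.98, SE 0.26, adjusted p = 0.00114). WRKY transcription factor 39 on chromosome 3 was at 4.9, 8.93 and 8.47 in WT and at 3.84, 2.7 and 3.85 in the knockout (-0.89, SE 0.22, adjusted p = 0.0315). WRKY 39 did not pass under 7 of 14 alternatives (adjusted p up to 0.118), among them those without WT replicate 2 or 3 or knockout replicate 1 or 2. The rise was WRKY transcription factor 24 on chromosome 9, which was at 4.33, 3.3 and 4.07 in WT and at 6.87, 7.12 and 8.4 in the knockout (0.79, SE 0.15, adjusted p = 0.00991). That gene did not pass in the fit of WT and WRKY37 knockout libraries alone (adjusted p = 0.0511). The 4 falls became 2 without WT replicate 1 or 2, and 1 without WT replicate 3 or knockout replicate 2. Against the LBD40-labelled group 14 of the 32 were lower and 1 higher, beside 12.9% lower and 14.1% higher over all tested genes. That group itself had 11 of the 32 above WT and 2 below.

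Among further regulators, bZIP factors fell in 6 of 38 cases and rose in 2, a count of falls that no single library moved beyond 1.5 times. Basic-leucine zipper domain on chromosome 9 was at 28.9, 30.2 and 29.2 in WT and at 9.78, 10.9 and 13 in the knockout (-1.32, SE 0.13, adjusted p = 0.000612). NAC factors split 4 and 4 of 34, with NAC domain protein AY498713 on chromosome 4 (62.7, 53.3 and 93.6 in WT, 24.9, 15.2 and 9.72 in the knockout) falling (-2.06, SE 0.30, adjusted p = 0.00281) and NAC domain-containing protein on chromosome 11 (copy 1) (198, 176 and 251 in WT, 488, 363 and 450.3 in the knockout) rising (1.06, SE 0.16, adjusted p = 0.00374). The 4 rises became 2 without any 1 WT library. Homeobox factors had 11 rises and 3 falls of 85, the rises numbering 4 without WT replicate 1 or knockout replicate 1 or 2, 5 without WT replicate 3 and 20 without knockout replicate 3, and the falls 5 without knockout replicate 3. Factors of the LOB domain family, to which SlLBD40 belongs, showed no change that passed in 15 tested.

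**Figure D5:**
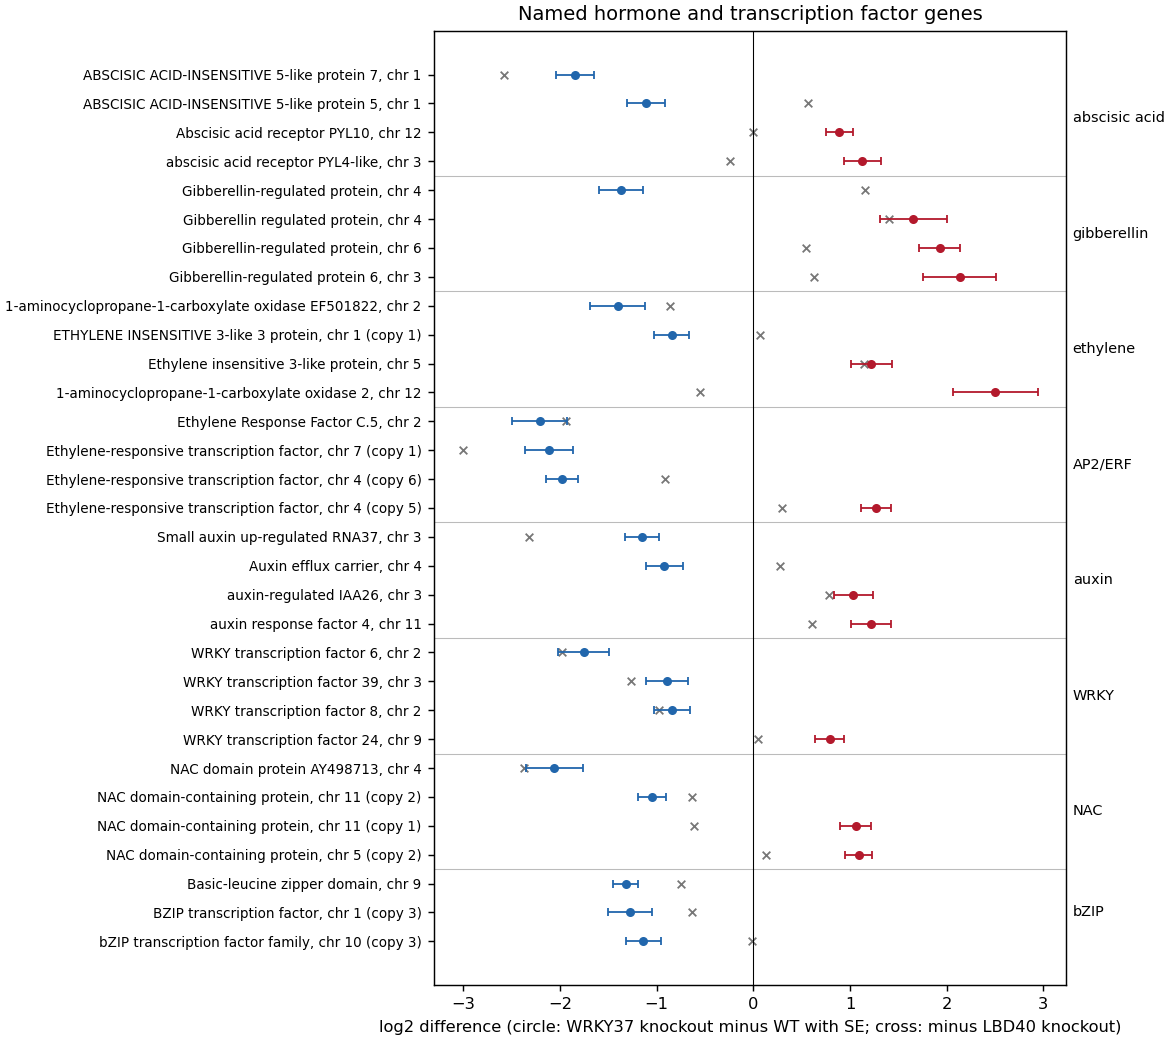
Named genes of 4 hormone lists, AP2/ERF, WRKY, NAC and bZIP factors, with the log2 difference of the WRKY37 knockout from WT as a circle with its SE and from the LBD40-labelled group as a cross (3 libraries per group). ABSCISIC ACID-INSENSITIVE 5-like protein 7, at -1.85 from WT and -2.58 from the LBD40-labelled group, lies low on both measures, while the PYL4-like receptor, at 1.13 and -0.24, is high against WT alone.

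Cytochrome P450 enzymes, which oxidise many small molecules, had 9 rises and 10 falls of 81. Cytochrome P450 on chromosome 8 (copy 1) was at 20, 15.6 and 12.7 in WT and at 83, 45 and 116 in the knockout (2.19, SE 0.29, adjusted p = 0.0018), and Cytochrome P450 on chromosome 6 (copy 11) was at 7.89, 5.63 and 7.61 in WT and at 0.37, 0.81 and 0.97 in the knockout (-2.23, SE 0.19, adjusted p = 0.000465). The 9 rises became 4 without WT replicate 1, 5 without WT replicate 3 or knockout replicate 1 or 2 and 15 without knockout replicate 3, and the 10 falls became 3, 6 and 4 without WT replicates 1, 2 and 3 and 5 without knockout replicate 2. Basic helix-loop-helix factors had 8 rises and 2 falls of 76, with bHLH transcription factor 063 on chromosome 10 among the falls, at 11.7, 11.3 and 9.94 in WT and 2.45, 3.78 and 4.48 in the knockout (-1.41, SE 0.20, adjusted p = 0.00245). Those 8 rises became 1 and 2 without WT replicates 1 and 3, 5 and 4 without knockout replicates 1 and 2, and 14 without knockout replicate 3. Auxin genes had 7 rises and 6 falls of 94, or 7.45% and 6.38%, not far from the 4.82% and 4.56% over all tested genes. Among the rises, auxin response factor 4 on chromosome 11 was at 9.03, 12 and 12.6 in WT and at 31.2, 33.3 and 19.2 in the knockout (1.22, SE 0.20, adjusted p = 0.00579). The 7 rises became 2 without WT replicate 1 or knockout replicate 1, 3 without WT replicate 3 and 13 without knockout replicate 3, and the 6 falls 2 without any 1 WT library or knockout replicate 2 and 3 without knockout replicate 1.

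Sugar transporters had 4 falls and 1 rise of 21, and SWEET proteins, which let sugar out of cells, were among both. Bidirectional sugar transporter SWEET on chromosome 3 (copy 10) was at 6.83, 4.57 and 14.3 in WT and at 0.23, 0 and 0.21 in the knockout (-2.94, SE 0.38, adjusted p = 0.00173), whereas Bidirectional sugar transporter SWEET on chromosome 9 rose and was at 12.3, 20.4 and 18 in WT and at 45.2, 47.9 and 46.1 in the knockout (1.44, SE 0.16, adjusted p = 0.000908). The LBD40-labelled group was at 7.69, 10.2 and 3.92 for the first and at 104, 103 and 109.7 for the second, so that every WRKY37 knockout library was below every LBD40-labelled library in both. The 4 falls became 1 without WT replicate 1 or knockout replicate 1 or 2. Ribosomal proteins of the cytosol, with 4 rises and 1 fall of 194, and proteasome subunits, with 2 falls of 48, changed in fewer cases than the background. For ribosomal proteins the 4 rises became 16 without knockout replicate 3, 13 or 14 under other library scalings, 2 without WT replicate 2, 1 without WT replicate 3 or knockout replicate 2 and 0 without WT replicate 1.

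Of 12 tested flavonoid enzymes of the seed coat 1 fell and none rose, and it was Chalcone synthase on chromosome 5, the first enzyme of flavonoid synthesis, which was at 10.3, 7.1 and 9.64 in WT and at 2.1, 0.21 and 0.59 in the knockout (-2.45, SE 0.32, adjusted p = 0.0017). Of 15 tested markers of fruit flesh 1 rose and none fell. Whether tissue makeup differed between the groups was not tested.

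In a direct contrast of the knockouts, 203 of the 884 rises were above the LBD40-labelled group and 356 of the 837 falls below it. That makes 559 of the 1721 genes. Of all tested genes, 14.1% were higher and 12.9% lower in the WRKY37 knockout in that contrast, or 27% together. Both contrasts use the same WRKY37 knockout libraries, so calls in the same direction are not independent. Between the knockouts the histone and photosynthesis lists were mainly lower in the WRKY37 knockout, as given above. Of the 15 oil body genes 2 were higher and 3 lower, and of the 46 LEA genes 5 were higher and 15 lower. A lower level in this contrast need not be a fall from WT, because the LBD40-labelled group itself differed from WT. Mitochondrial respiratory chain genes had 5 rises and 5 falls of 116 against WT, or 4.31% each, near the shares over all tested genes. Against the LBD40-labelled group 28 of them were lower and 1 higher. Antioxidant enzymes had 22 lower and none higher of 43. In the LBD40-labelled group 49 respiratory chain genes were above WT and 7 below, and 19 antioxidant enzymes were above WT and 3 below. The 5 and 5 calls against WT for the respiratory chain also depended on single libraries. The rises became 1 without knockout replicate 1 or WT replicate 3, 2 without WT replicate 1 or 2, 3 without knockout replicate 2 and 10 without knockout replicate 3, and the falls 1 without WT replicate 1.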

How the data were processed

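Total RNA of imbibed seeds was extracted with an RNeasy kit and made into libraries with a SMARTER mRNA kit, per the labels' protocols. TopHat2, HISAT2, StringTie and Cufflinks are named in the submitters' processing notes, without roles or versions. What build and annotation they used is not given in the sources used here. Their deposited table has 1 value per gene and library and names no unit. The deposited values are taken as FPKM from their range and sums, and TPM over a larger set of genes remains possible. In the deposited file the values of 1 library, WT replicate 1, stand in the same field as the end of the gene name, and they were read by character position. Gene IDs are shortened to 8 characters, so genes are named by description, chromosome and copy number in table order.

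Log2(value + 1) was fitted with limma 3.58.1 in R 4.3.3 on all 9 libraries, with 1 mean per group, no pairing, variances moderated with an intensity trend, and Benjamini-Hochberg adjustment over the 18346 genes with a mean of at least 1. Python 3.11.15 with numpy 2.4.6, pandas 2.3.3, scipy 1.17.1 and matplotlib 3.10.9 made the summaries and figures. The fit was tested on simulated data. Summed shares were compared with an exact permutation test, which cannot go below 0.1 for 3 against 3 libraries. Alternatives covered scaling, pseudocount, the filter, the libraries in the fit, the replicate block, the fold and leaving out each library. No depth could be derived for any library, so precision rests on the number of libraries.

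The comparison, gene lists and naming rule were chosen with earlier results of these data known, and list patterns were refined after the descriptions were read. Lists were built from words in the descriptions. Named by rule were the 15 largest rises and 15 largest falls with non-overlapping groups and the higher group averaging at least 5, the 5 largest gains and 5 largest losses of level, and from each list with at least 3 calls up to 4 members, taken in order of adjusted p. Also named, chosen after their values were seen, were 11 genes: the caleosin, chalcone synthase, cysteine proteinase inhibitor, gibberellin receptor, tonoplast intrinsic protein 3.2, RuBisCO activase, the pectinesterase on chromosome 4, and the copies of glutathione S-transferase-like protein, LEA protein, pectin lyase-like protein and RuBisCO small chain on chromosomes 7, 11, 5 and 7.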

Additional observations from a re-analysis of the deposited data

How the results depend on the processing

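The total of 1721 genes became 802 with the WT and WRKY37 knockout libraries alone and 816 with a log2 difference of at least 1, and 783 to 2629 with 1 library left out. The 884 rises became 579 with no filter on low values, 367 with those 6 libraries alone, 386 with the fold minimum and 345 to 1693 with 1 library left out. The 837 falls became 435, 430 and 438 to 936 for the 6 libraries, the fold minimum and 1 library left out. The totals under the other alternatives lay within 1.5 times, at 2313 with quantile normalization, 2058 with equal totals, 2244 with median-ratio scaling, 1745 with a pseudocount of 0.1, 1267 without the filter and 1470 with a minimum mean of 5. Of the 228 genes covered by the naming, 158 passed under every setting in which they were tested, which for 193 of the 228 includes the minimum mean of 5, 70 did not pass under at least 1 setting, and none changed direction. List counts of 3 or fewer often moved by more than 1.5 times with a single library.

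The libraries were not paired by replicate number. Deviations of same-numbered libraries from their group means correlated at -0.069, 0.058 and -0.105 over genes, and those of differently numbered libraries at -0.111 to 0.163. These values show no sign of pairing by number. They cannot exclude it, since the deviations within a group depend on each other. With the replicate block the total was 1203, with 591 rises and 612 falls. The cause of these shifts was not tested, and without counts the depth behind low levels is unknown.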

Other observations

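In 10 genes every WRKY37 knockout library was listed at 0 while every WT library was at 1 or above, and 5 of these were at 0 in the LBD40-labelled group too. In 8 genes the reverse held, and 5 of these were at 0 in the LBD40-labelled group. These genes were chosen after their values were seen, and an exact 0 can be a failed estimate, so no fold is given. Glutaredoxin on chromosome 6 (copy 3), of a family of small redox enzymes, was at 1.45, 1.46 and 1.63 in WT, at 0 in the WRKY37 knockout and at 0, 0.88 and 0 in the LBD40-labelled group. The gene described as protein PSY1 on chromosome 6 was listed at 0 in WT, at 1.52, 5.97 and 1.94 in the WRKY37 knockout and at 0, 0 and 1.61 in the LBD40-labelled group. Homeodomain-like/winged-helix DNA-binding family protein on chromosome 7 was listed at 0 in WT, at 6.64, 5.18 and 1.72 in the WRKY37 knockout and at 4.41, 2.18 and 3.88 in the LBD40-labelled group.

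Called genes were spread over all 12 chromosomes, from 7.62% of those tested on chromosome 8 to 11.7% on chromosome 9. Of 1033 tested rows with RNA identifiers 40 rose and 40 fell, or 7.74%, beside 9.48% of the 17313 rows with protein identifiers.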
